A study of Nothobranchius furzeri with 6 samples.

Results

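The microRNA families mir-22, mir-30 and mir-103 (listed as nfu-mir-22, nfu-mir-30 and nfu-mir-103) were described in brain of the turquoise killifish Nothobranchius furzeri, an annual fish with a short life that is used in ageing research. They were taken by exact name from the deposited table of read counts, where they are 3 of 324 features. All 6 small RNA libraries came from brains of males of strain MZM-04/10p aged 39 weeks, so the libraries form 1 group, with no second age, sex, strain or treatment. The labels name a separate code for each library but not a separate fish, and p-values therefore measure the spread between these 6 samples, which may be technical. Library totals lay between 11924483 and 16597229 counts.

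MicroRNAs are short RNAs that guide Argonaute proteins to messenger RNAs, which they recognise mainly through the seed, a short stretch near the 5′ end, and whose translation and stability they lower. Members of a family share a seed and therefore many targets. All 3 families are known from many vertebrate tissues: mir-22 has been studied in mouse heart growth and in the protection of neurons, mir-30 in the differentiation of epithelia, and mir-103, which lies within introns of pantothenate kinase genes in vertebrates, in insulin signalling of the mouse. Because the series holds brain alone, how widely the families are expressed in this fish was not analysed here.

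The brain origin was checked with markers first. All 7 families chosen as markers of neurons and their progenitors were present and together held 15.4% ± 1.61 of all counts (mean ± SD, n = 6), led by mir-128 and mir-9. Both oligodendrocyte families were present at 1.87% ± 0.174. Families chosen as markers of other cell types that a brain sample could hold had less: vessel wall 0.885% ± 0.148, muscle 0.110% ± 0.0221, red blood cells 0.0473% ± 0.0166, white blood cells and microglia 0.0454% ± 0.00635, skin and epithelium 0.0239% ± 0.0181, and liver mir-122 0.000998% ± 0.0000740. These shares cover the chosen families only. No marker row was at 0 in any library. In tissue samples of this kind, fewer cells of a type and less RNA per cell cannot be told apart.

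Together the 3 families held 4.31% ± 0.218 of all counts, with a lowest value of 4.08% in library 6 and a highest of 4.70% in library 3. The mir-22 row made up 65.6% ± 2.59 of these counts, the mir-30 row 25.7% ± 2.53 and the mir-103 row 8.76% ± 0.541. Levels are given below as CPM, the count of a row relative to its library total, after scaling with edgeR's TMM factors, which adjust each library total for differences in composition.

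The most abundant of the 3, nfu-mir-22, had a lowest level of 26145 CPM, a median of 28858 CPM and a highest level of 30328 CPM. Its mean was 28269 ± 1710.4 CPM (SD, n = 6), or 2.83% ± 0.138 of all counts, and it ranked 8th of 324 rows. Libraries 1 and 2 were lowest, at 26145 and 26215 CPM, and library 5 was highest, so the whole range was 1.16-fold. As a share of all counts, without the scaling, libraries 1 and 2 were again lowest, at 2.69% and 2.66%, and library 3 was highest, ahead of library 5 at 2.95%.

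The nfu-mir-30 row had a lowest level of 9849 CPM, a median of 11269.7 CPM and a highest level of 12095 CPM. It averaged 11057 ± 989 CPM (SD, n = 6), or 1.11% ± 0.135 of all counts, and ranked 16th. Libraries 1, 2 and 3 were high, at 11856, 11775 and 12095 CPM, and libraries 4, 5 and 6 were lower, at 9849, 10764 and 9999.8 CPM. The range was 1.23-fold. Libraries 1 to 3 also had the larger TMM factors, of 1.01 to 1.05, against 0.958 to 0.983 in libraries 4 to 6. Without that scaling the same 3 libraries were still the highest, with mir-30 shares of 1.22%, 1.19% and 1.27%, against 0.968%, 1.05% and 0.958% in libraries 4, 5 and 6.

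The nfu-mir-103 row had a lowest level of 3328 CPM, a median of 3777 CPM and a highest level of 4159 CPM. Its mean was 3779 ± 332 CPM (SD, n = 6), or 0.378% ± 0.0390 of all counts, and it ranked 28th. Library 6 was lowest, followed by libraries 1 and 2 at 3546 and 3611 CPM. Library 3 was highest and library 5 stood close to it at 4089 CPM, which gave a 1.25-fold range.

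**Figure D1:**
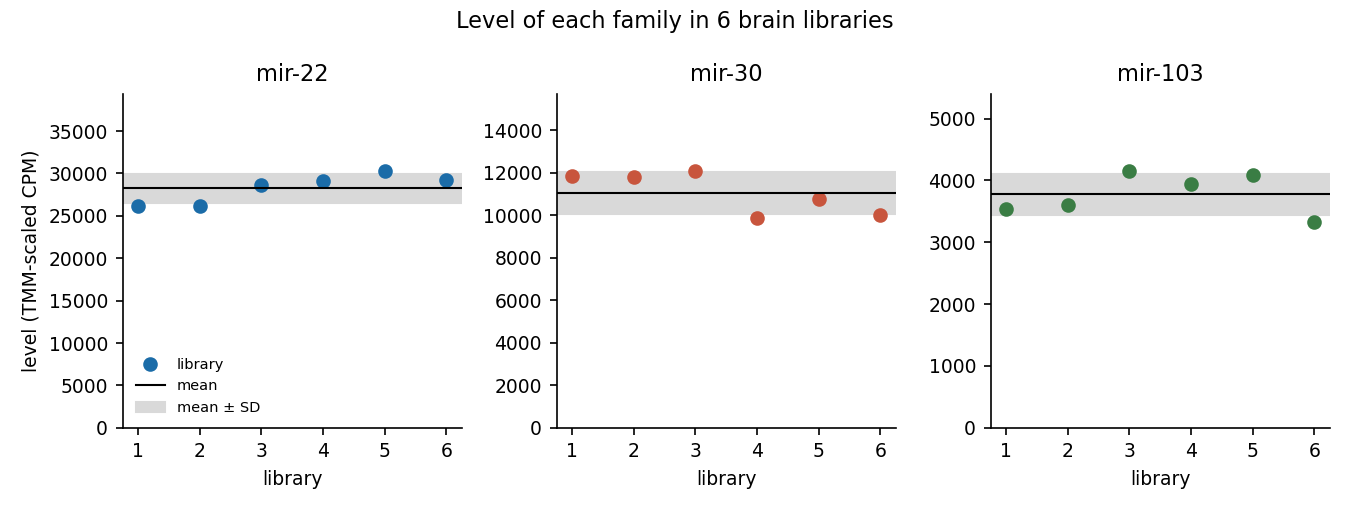
Level of mir-22, mir-30 and mir-103 in TMM-scaled CPM in each of the 6 libraries (points), with the mean (line) and mean ± SD (grey band). The range over libraries was 1.16-fold for mir-22, 1.23-fold for mir-30 and 1.25-fold for mir-103, and the libraries that were high or low differed between the 3 panels.

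Counting error was a small part of this spread. The rows held at least 321754 counts per library for mir-22, 115398 for mir-30 and 40747 for mir-103. In library 6, the exact (Clopper-Pearson) 95% binomial interval of mir-103 was 3296 to 3361 CPM, and in library 3 that of the same row was 4129 to 4189 CPM. The coefficient of variation between libraries was 6.05% for mir-22, 8.95% for mir-30 and 8.79% for mir-103, against 0.164%, 0.264% and 0.450% that counting alone would give. Such intervals leave out all other error, because reads counted without molecular identifiers need not stem from separate molecules.

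The order of the 3 levels was the same in every library. Within libraries mir-22 exceeded mir-30 by a log2 ratio of 1.36 ± 0.20, or 2.56-fold, and exceeded mir-103 by 2.91 ± 0.12, or 7.49-fold. The mir-30 row exceeded mir-103 by 1.55 ± 0.17, or 2.93-fold (mean ± SD, n = 6 for each). Each direction held in 6 of 6 libraries, and a two-sided exact permutation test that flips the signs of the log2 ratios gave p = 0.03125 for each pair, which is the lowest p possible with 6 libraries, and an adjusted p of 0.03125 over the 3 pairs. These ratios use counts of the same library and need no scaling. Adaptor ligation in small RNA library kits depends on sequence, so a ratio between families mixes abundance with that bias.

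The ratios were not equally steady. The log2 ratio of mir-22 over mir-30 was 1.14, 1.15 and 1.24 in libraries 1, 2 and 3 and 1.56, 1.49 and 1.55 in libraries 4, 5 and 6. That of mir-22 over mir-103 was 2.78 to 2.89 in libraries 1 to 5 and 3.13 in library 6, where mir-103 was at its lowest. The ratio of mir-30 over mir-103 had its lowest value, 1.32, in library 4 and its highest, 1.74, in library 1.

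**Figure D2:**
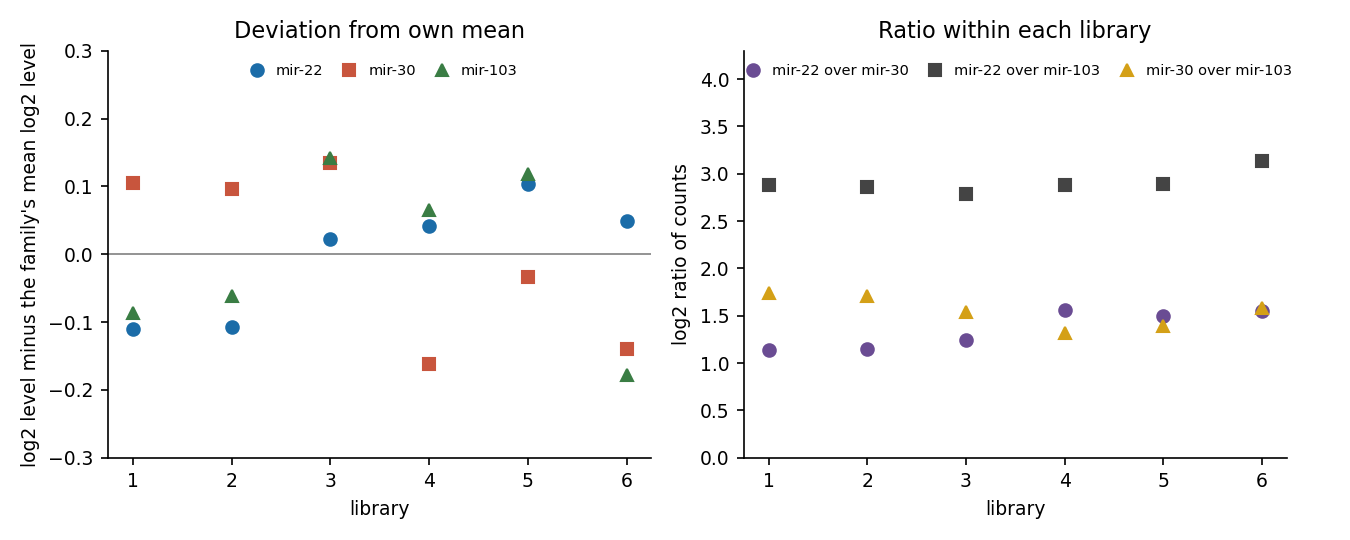
Left, log2(CPM + 1) of each family minus its own mean over the 6 libraries. Right, log2 ratio of counts between the families within each library. On the left mir-30 lay above its mean in libraries 1 to 3 and below it in libraries 4 to 6, while mir-22 lay lowest in libraries 1 and 2. On the right mir-22 over mir-103 was 3.13 in library 6 and at most 2.89 in the others.

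Whether the families moved together over libraries was asked with Spearman's rho and Pearson's r of the 6 values of log2(CPM + 1). The pair mir-22 and mir-30 had r = -0.63, with an exact permutation p = 0.217 and an adjusted p = 0.542 over the 3 pairs. Its rho was -0.60, with an exact permutation p = 0.242 and an adjusted p = 0.714. The r was -0.23 without libraries 1 and 2, the farthest from the median of mir-22. It depended on the scaling: r was -0.12 as plain CPM and turned to 0.33 as CPM of a total without mir-181, the most abundant row. For mir-22 with mir-103, r was 0.45 (exact permutation p = 0.361, adjusted p = 0.542) and rank-based rho was 0.20 (exact permutation p = 0.714, adjusted p = 0.714), with r = 0.08 without the same 2 libraries, 0.91 without library 6 and 0.79 with the total without mir-181. For mir-30 with mir-103, r was 0.17 (exact permutation p = 0.75, adjusted p = 0.75) and rank-based rho was 0.31 (exact permutation p = 0.564, adjusted p = 0.714). That r was -0.31 without libraries 4 and 6, the farthest from the median of mir-30, and -0.14 without library 3, but 0.49 as plain CPM and 0.64 with the total without mir-181. No pair passed the test, which with 6 libraries does not show that the families are unrelated.

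Variation between libraries was tested for the 214 rows that averaged at least 10 counts, by edgeR's goodness-of-fit test. It asks whether a row varies more than a trend of variation against abundance fitted to these rows. For the 3 families the trend gave a coefficient of variation of 0.299 to 0.323, far above the 6.05% to 8.95% observed. A p near 1 therefore does not rank them among rows of like abundance. None of the 3 families was called, with unadjusted p-values of 0.999 for mir-22, 0.994 for mir-30 and 0.996 for mir-103 and an adjusted p of 0.9999 for each, by edgeR with Benjamini-Hochberg adjustment. Of all 214 rows, 8 were called, or 3.74%, and 18 had an unadjusted p under 0.05 by the same test. The most abundant called row, mir-375, averaged 598 CPM, so none of the 47 rows of at least 1000 CPM was called. That the 3 families were not called therefore does not set them apart from other abundant rows. DESeq2's dispersion outliers, 3 rows or 1.4% of the 214, also held none of the families, nor did the 22 rows, or 10.3%, called by edgeR with the trend fitted without the called rows. An index of dispersion that allows counting noise only called all 3, along with 82.7% of rows.

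Their spread lay in the lower part of the table. The SD of log2(CPM + 1) was 0.09 for mir-22, 0.13 for mir-30 and 0.13 for mir-103, against a median of 0.27 over the 214 rows tested. In ascending order of this SD, mir-22 stood 8th, mir-103 stood 25th and mir-30 stood 26th. Abundant rows tend to vary less, and among the 47 rows with a mean of at least 1000 CPM the median SD was 0.18. There mir-22 stood 6th, mir-103 stood 13th and mir-30 stood 14th, counted from the steadiest row.

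**Figure D3:**
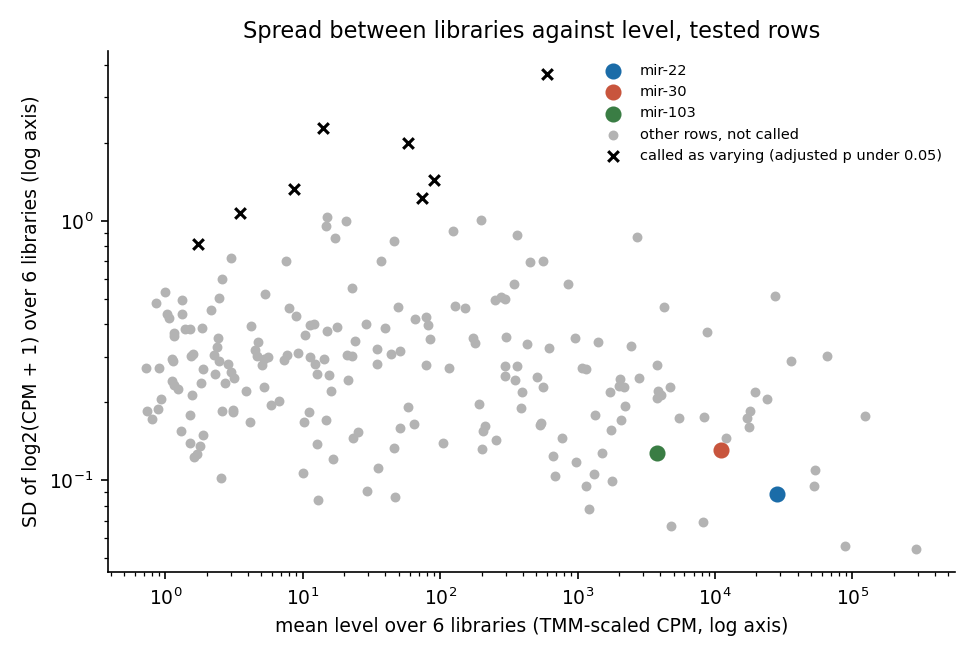
SD of log2(CPM + 1) over 6 libraries against mean level for the 214 tested rows, both axes logarithmic. The 3 families (coloured) lie between 0.09 and 0.13, among the steadier of the abundant rows, and the 8 rows called by edgeR's test (crosses) lie far above them.

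Since mir-103 is widely used as a reference for normalization, steadiness was also measured without any scaling, as the SD over libraries of the log2 ratio of a row to another row, averaged over all partners among the 47 rows of at least 1000 CPM. This mean SD was 0.24 for mir-22, 0.26 for mir-30 and 0.26 for mir-103, against a median of 0.29, a lowest of 0.22 for let-7 and a highest of 0.92. By this measure mir-22 ranked 10th, mir-30 ranked 13th and mir-103 ranked 16th of 47. The ranks depended on the rows and libraries included. Among the 20 rows of at least 5000 CPM, mir-22 ranked 4th and mir-30 ranked 12th, in the less steady part of that set. With 1 library left out of the 47-row set, mir-22 ranked between 5th and 11th, mir-30 between 12th and 23rd and mir-103 between 14th and 22nd. Of the other reference families in this set, mir-27 and mir-25 had mean SDs above those of the 3 families, as had mir-16 and mir-26, and let-7 had a smaller one.

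**Figure D4:**
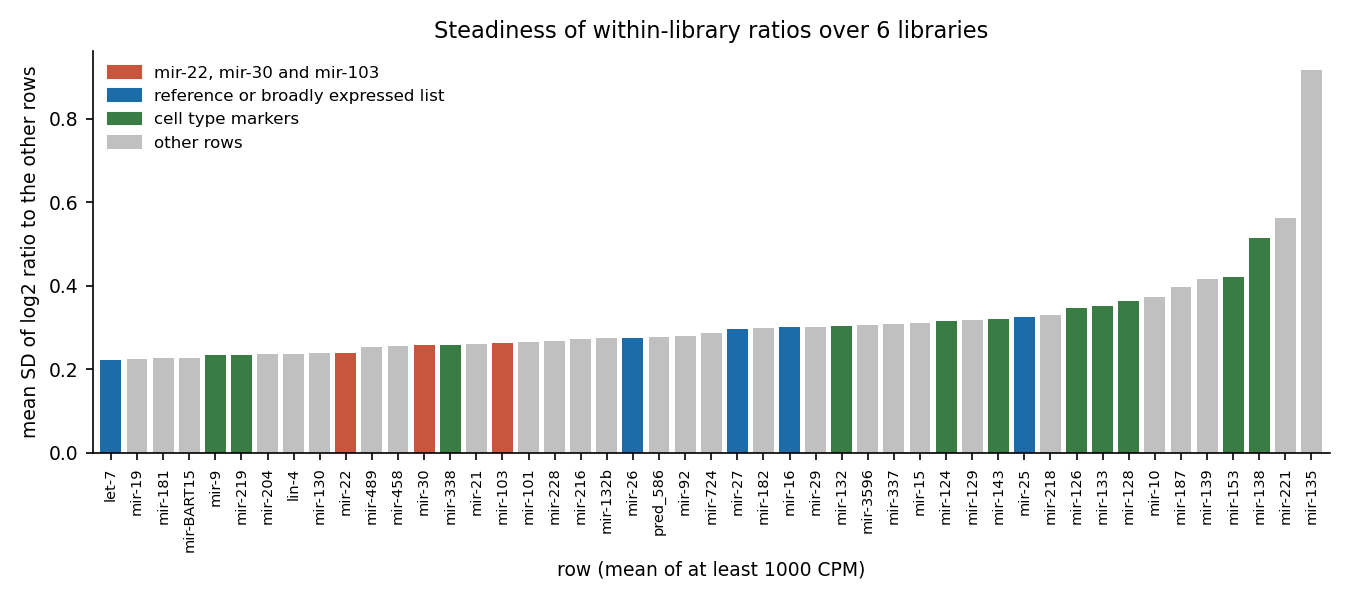
Mean SD over 6 libraries of the log2 ratio of each row to the other rows of at least 1000 CPM, in ascending order, with mir-22, mir-30 and mir-103 in red, families often used as references or called broadly expressed in blue, and cell type markers in green. The 3 families hold ranks 10, 13 and 16 of 47, with let-7 at the left end.

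Relatives by seed were few in the table. The mir-107 family, which shares the seed of mir-103, has no row of its own name here, and whether its reads were counted as mir-103 is not known. Of the wider group whose seeds overlap that of mir-103, mir-15 and mir-16, known as brakes on the cell cycle, had rows. The mir-103 level was above that of mir-15 in 6 of 6 libraries, by a log2 ratio of 0.44 ± 0.34 (mean ± SD), with mir-15 at 2802 ± 444 CPM. It was above mir-16, at 3846 ± 586 CPM, in only 2 of 6 libraries, with a log2 ratio of -0.02 ± 0.30. Neither relative was called in the test for variation. The other names of that group, mir-195, mir-424, mir-497 and mir-503, matched no row, nor did mir-384, a relative of mir-30. No row carried a lettered form of mir-22, mir-30 or mir-103, so each family stands in 1 row whose paralogues and arms are not separated.

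Neighbouring rows in the order of mean levels were close to each family. Above mir-22 stood mir-10, a family encoded within Hox clusters, at 35722 ± 7039 CPM, and mir-22 was higher than it in 1 of 6 libraries (log2 ratio -0.32 ± 0.31). Below stood mir-221, studied in cell proliferation and vessels, at 27219 ± 9073 CPM, and mir-22 was higher in 3 of 6 libraries (0.13 ± 0.44). Neither step passed the test, with adjusted p-values of 0.1875 and 0.675 by the exact sign-flip permutation test over the 6 steps examined.

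For mir-30 the row above was mir-21, a family induced by injury, at 12133 ± 1184 CPM. It exceeded mir-30 in 6 of 6 libraries by a small margin (log2 ratio of mir-30 over mir-21 -0.13 ± 0.10, exact permutation p = 0.03125, adjusted p = 0.09375). The row below, neuronal mir-153 at 8708 ± 2179 CPM, was exceeded by mir-30 in 4 of 6 libraries (0.38 ± 0.45, exact permutation p = 0.125, adjusted p = 0.1875).

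For mir-103 the row above, mir-129 at 3803 ± 552 CPM, did not differ from it beyond the spread: mir-103 was higher in 3 of 6 libraries (log2 ratio -0.0013 ± 0.15, exact permutation p = 1). The row below was mir-15, described above, with an exact permutation p = 0.03125 and an adjusted p = 0.09375. No step passed after adjustment, and the steps were chosen by the ranking itself.

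Set against 22 marker rows of particular cell types, mir-22 was higher in all 6 libraries than 20 of them and lower than the other 2, neuronal mir-128 and mir-9. The mir-30 row was higher in all libraries than 17 marker rows and lower than 4, with mir-153 in between. The mir-103 row was higher than 13 and lower than 5. The 4 whose order changed between libraries were neuronal mir-124 and mir-138 and the vessel wall families mir-126 and mir-143. The mir-103 level thus stood beside that of mir-124, the classical neuronal family, at 4069 ± 599 CPM, with a log2 ratio of mir-103 over mir-124 of -0.10 ± 0.27. Of 10 families often used as references or called broadly expressed, 8 had rows and none of these was called as varying, with a median log2 SD of 0.20. The mir-22 row was higher in all libraries than 5 of them, lower than mir-26 and let-7, and changed places with mir-27, which it exceeded in 5 of 6 libraries.

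**Figure D5:**
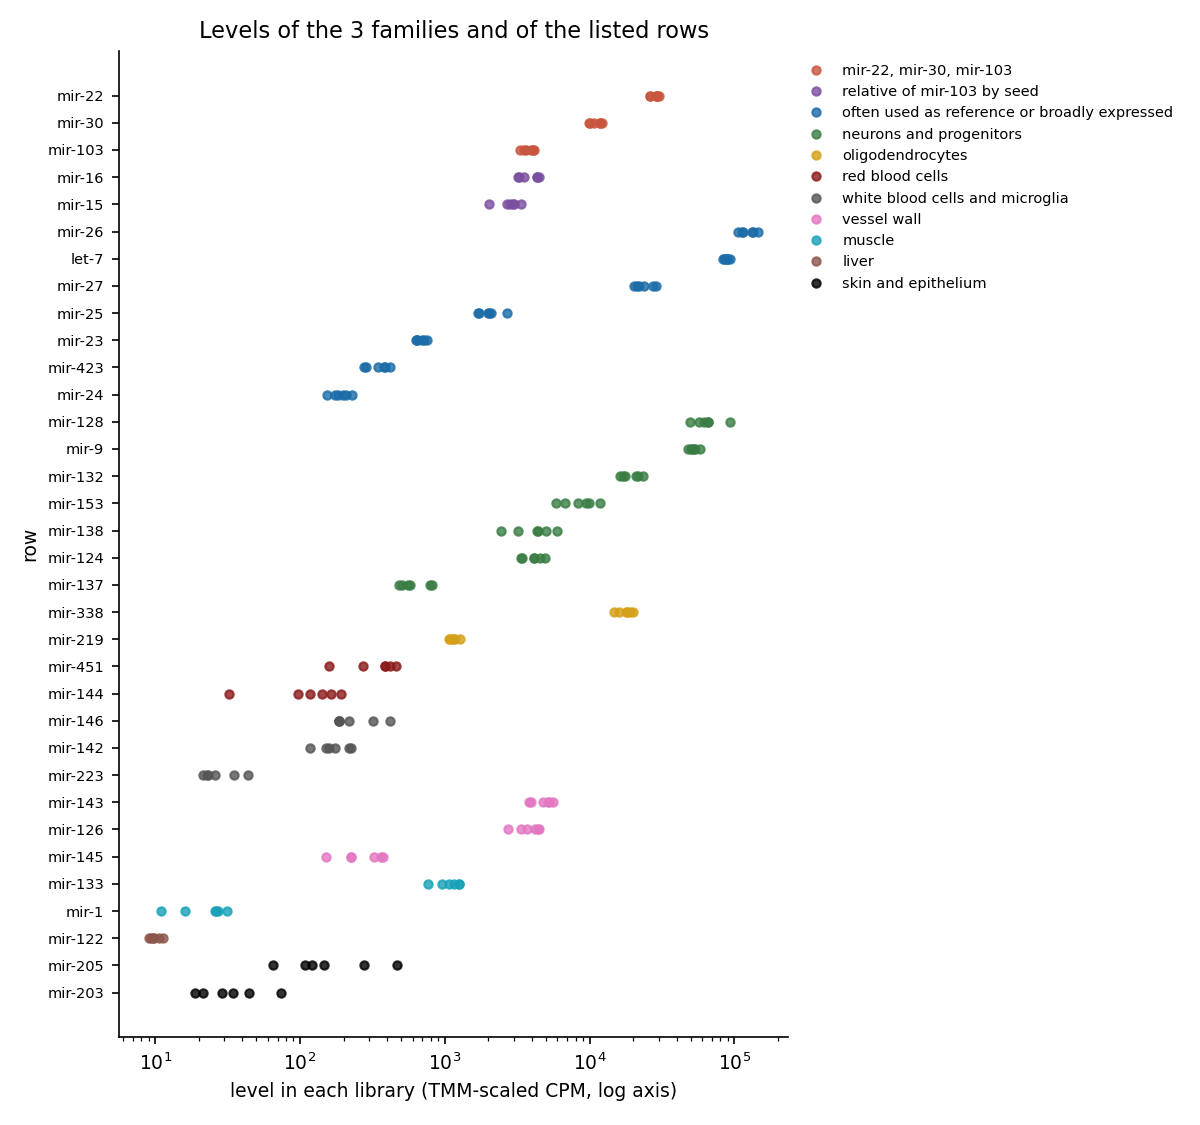
Level of mir-22, mir-30 and mir-103 (top 3 lines) and of the rows of each list in each of the 6 libraries, in TMM-scaled CPM on a logarithmic axis; mir-16, which is in 2 lists, is drawn once. The points of mir-103 overlap those of mir-15, mir-16, mir-124, mir-138, mir-126 and mir-143, and those of mir-22 lie below mir-26, let-7, mir-128 and mir-9.

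The rows whose pattern over the 6 libraries was most like each family were found by Pearson's r of log2(CPM + 1) among the 86 other rows of at least 100 CPM. These values are a description over libraries that share their depth and scaling with both rows, and no p is attached. They are the highest of 86 values over only 6 libraries, so picking alone makes them high. For mir-22 they were mir-139 (r = 0.97), mir-221 (r = 0.88) and mir-7 (r = 0.83), a family known from endocrine cells and neurons, while the median r over the 86 rows was -0.16. Each of these rows varied more than mir-22, with a log2 SD of 0.34, 0.51 and 0.70. The mir-139 level, for example, was lowest in library 1 at 995 CPM and highest in library 5 at 1933 CPM, the same libraries as for mir-22.

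For mir-30 the most alike rows were muscle mir-133 (r = 0.87), mir-140 (r = 0.85), known from cartilage, and mir-449 (r = 0.83), known from ciliated cells, against a median r of 0.02. The mir-133 level was 1247, 1258 and 1156 CPM in libraries 1, 2 and 3 and 951, 1075 and 769 CPM in libraries 4, 5 and 6. Of the 3 muscle families, 2 had rows, and their summed share was 0.124% to 0.131% in libraries 1 to 3 and 0.0762% to 0.106% in libraries 4 to 6. That sum is nearly all mir-133, at a mean share of 0.108% against 0.00231% for mir-1. It therefore repeats the row picked by its r with mir-30 and adds no separate observation. The split into libraries 1 to 3 and 4 to 6 was itself read from the mir-30 values. How many of all rows split the same way was not counted, so the markers below have no background share beside them. The split was not particular to marker rows. In CPM, mir-22 was at most 28662 in libraries 1 to 3 and at least 29055 in libraries 4 to 6, although its shares of all counts overlapped. The reference families mir-26 and mir-423 were also higher in all of libraries 4 to 6 in CPM, while the other reference rows overlapped. The mir-1 row, the other muscle marker, stood at 22.9 ± 7.76 CPM. It had 27.0, 31.4 and 26.4 CPM in libraries 1, 2 and 3, against 16.0, 10.9 and 25.9 CPM in libraries 4, 5 and 6. Neither muscle row was at 0 in any library. Some of the other marker lists also split between the same libraries. Skin and epithelial families, both present, summed to 0.0185%, 0.0324% and 0.0567% in libraries 1, 2 and 3, against 0.0148%, 0.0124% and 0.00830% in libraries 4, 5 and 6. The summed share of the 7 families of neurons and progenitors went the other way. It was 14.7%, 15.0% and 13.5% in libraries 1, 2 and 3, against 18.3%, 15.2% and 15.9% in libraries 4, 5 and 6. In CPM, mir-9, mir-128 and mir-132 were each higher in all of libraries 4 to 6 than in any of libraries 1 to 3. As shares of all counts, without the TMM scaling, this still held for mir-128 and mir-132. It did not hold for mir-9, whose share was higher in library 1 than in library 4. The mir-137, mir-138 and mir-153 levels overlapped in CPM. So did mir-124, which tended to be higher in libraries 1 to 3, at 4528, 4106 and 4885 CPM against 3364, 3423 and 4109 CPM. The summed shares of the white blood cell families overlapped between these libraries, and their 3 rows did not behave alike. The mir-223 row had 43.96, 35.2 and 25.7 CPM in libraries 1 to 3. In libraries 4 to 6 it had 23.0, 22.9 and 21.5 CPM. The mir-142 row overlapped, at 218, 225 and 152 CPM against 157, 117 and 174 CPM. The mir-146 row overlapped too but tended the other way, at 186, 187 and 216 CPM against 187, 419 and 321 CPM. The summed shares of the red blood cell, vessel wall, oligodendrocyte and liver families also overlapped. The part of these markers, and of the TMM factors, in the mir-30 values was not tested.

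For mir-103 no row reached r = 0.8. The most alike were mir-129 (r = 0.67), mir-337 (r = 0.63) and mir-92 (r = 0.62), a family of the growth-promoting miR-17-92 cluster, with a median r of -0.07. The mir-129 row was highest in library 3 and lowest in library 6, as mir-103 was. In the other direction, 5 of the 86 rows had an r of -0.8 or lower with mir-103, 10 with mir-30 and 2 with mir-22. An r of 0.8 or higher was reached by 4 rows with mir-30 and 3 with mir-22.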

How the data were processed

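Small RNA was sequenced from total RNA of killifish brain with Illumina's TruSeq small RNA kit, per the labels' protocols. The authors deposited raw counts, as whole numbers, per miRNA family or predicted feature. Tools named without a role, per the submitters' processing notes, are SAMtools 1.3.1-9, BWA 0.7.12-r1039, Trimmomatic 0.36 and bcl2fastq 1.8.4. Not given in the sources used here are the miRNA annotation, the genome build and the handling of reads with several matches. Reads of near-identical families may be split or shared.

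Counts were scaled with TMM (edgeR 4.0.16, R 4.3.3). Rows with a mean of at least 10 counts entered an intercept-only negative binomial fit at the trended dispersion, whose goodness-of-fit p was Benjamini-Hochberg adjusted over 214 rows (threshold 0.05). Counts were also simulated in 20 runs for these rows, each at its trended dispersion. There the test called 83% of rows with an extra log2 SD of 2. It called 18% with an extra log2 SD of 1 and 0 of 4080 unchanged rows, so smaller excess variation is mostly missed. Counting error aside, the trend gave a coefficient of variation of 0.299 for mir-22, 0.307 for mir-30 and 0.323 for mir-103. All 3 families varied less than that between libraries, and rows that steady were not simulated. DESeq2 1.42.0 gave an alternative. Other tests enumerated all 64 sign patterns or all 720 pairings (SciPy 1.17.1 for intervals). Ratio steadiness used counts + 0.5.

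Libraries are numbered in accession order, which only names them. Rows named are the 3 families, their neighbours in rank, the 3 most alike rows each, and lists of relatives, reference families and markers. The members and lists were chosen with earlier results of these data known.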

Additional observations from a re-analysis of the deposited data

Results flagged for a closer look

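Dixon's criterion, which sets the gap of the highest or lowest of 6 values against their whole range, was met by 1 of 11 quantities examined. The log2 ratio of mir-22 over mir-103 was 3.13 in library 6, against 2.78 to 2.89 in libraries 1 to 5. Chance flags about 1 in 20 such values, and the 11 are not independent. In that library mir-103 stood 0.18 below its own mean log2 level and mir-22 stood 0.05 above its own. Neither family's level or share was flagged alone.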

How the results depend on the processing

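DESeq2 size factors and plain CPM moved no mean level by 1 SD. That was nearly fixed in advance, because each set of scaling factors is centred on 1 over the libraries. With mir-181 left out of the total, which shrinks it, the means were 39942 CPM for mir-22, 15707.5 CPM for mir-30 and 5355 CPM for mir-103. The count of varying rows, 8 by the main test, was 22 with the trend fitted without the called rows, 3 as DESeq2 dispersion outliers and 177 by the Poisson index, which also called 3 of the 3 families; it was 6 to 9 with 1 library left out. None of the families was called under the other alternatives run. Leaving out 1 library kept the log2 ratios at 1.32 to 1.40 for mir-22 over mir-30, 2.86 to 2.93 for mir-22 over mir-103 and 1.51 to 1.59 for mir-30 over mir-103. No correlation passed under any alternative. The r of mir-22 with mir-30 was 0.33 with the total without mir-181 and -0.80 to -0.53 with 1 library left out. For mir-30 with mir-103 it was -0.30 to 0.42, and for mir-22 with mir-103 0.26 to 0.91, with 1 library left out. Scaling moved them too: r was -0.12, 0.64 and 0.49 as plain CPM for mir-22 with mir-30, mir-22 with mir-103 and mir-30 with mir-103, and 0.79 and 0.64 for the last 2 pairs with the total without mir-181. The cause was not tested. Ordered by median CPM, the row below mir-103 was mir-129 (log2 ratio -0.0013) in place of mir-15. No paired comparison between groups of libraries was possible because all 6 libraries form 1 group. With 6 libraries, the sign-flip test cannot fall below 0.03125.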
